A study of Mus musculus with 16 samples.

Results

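Trans-aortic banding (TAB) narrows the aorta, so that the left ventricle has to pump against a raised pressure. The comparison described here sets the ventricles of wild-type mice 1 week after TAB against those of wild-type mice 1 week after a sham operation, and asks which transcripts change under the load. It was chosen by title and holds 8 of the 16 arrays of the series, 4 of each operation. All mice were of strain 129Sv, and the labels call the 4 arrays of a group biological replicates; the age of the animals and how the band was checked are not stated by these sources. The other 8 arrays hold ventricles of 129Sv mice that lack CHIP, a ubiquitin ligase working with chaperones and the product of Stub1, 4 after sham and 4 after TAB at the same time. On each array heart RNA, labelled with Cy5, was measured against a reference RNA from the whole body of neonatal mice of mixed 129Sv and C57BL/6 strain, labelled with Cy3. A value is therefore the log2 ratio of heart over reference for 1 gene, and a difference is the mean log2 ratio after TAB minus that after sham. Because a ratio also depends on the gene's level in the reference, levels are compared within a gene and not between genes.

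A ventricle under pressure load thickens because its muscle cells grow while they hardly divide. Stretched muscle cells secrete natriuretic peptides, return in part to the contractile isoforms of the fetal heart, and shift their fuel away from fatty acids, the main substrate of the adult heart. Fibroblasts lay down collagen, macrophages enter or multiply, and endothelial cells form capillaries around the larger muscle cells. These processes ordered the gene groups below, whose members were listed from their known roles and with earlier results of these data known.

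The arrays showed ventricle: Myl2, the ventricular regulatory myosin light chain, lay between 5.23 and 5.60 on the log2 scale on all 8. The share of spots that stood well above background in Cy5 was 27.0% to 37.7%, with the lowest share in TAB replicate 1 and 31.7% to 35.2% in the other TAB replicates. Since each group lay on a slide of its own, an effect of the slide and one of the operation cannot be told apart here. Across genes, sham arrays correlated with each other at 0.975 to 0.982, TAB arrays at 0.959 to 0.973, and sham with TAB arrays at 0.905 to 0.945. Several sham arrays stood apart. Sham replicate 4 had Xist at -3.20, against -0.40 to 0.16 on the other 7 arrays, and was the only array of the 8 with the Y-linked Ddx3y (1.58) and Eif2s3y (1.74) well above background. Sham replicates 1 and 3 had Myl7, the atrial myosin light chain, at 3.82 and 1.89, against -1.69 to 0.17 on the other 6. Sham replicates 2 and 4 had the heat shock gene Hspa1a at 1.96 and 2.61, against -1.31 to 0.12 elsewhere. Their part in the results was not tested beyond leaving these arrays out, as given below where it changed a result.

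Of 11177 features tested with limma, 2069 rose (18.5%) and 1914 fell (17.1%) at a Benjamini-Hochberg adjusted p below 0.05, and the median difference of all features was 0.00. At an unadjusted p below 0.05 there were 4992 (44.7%). Few moved far: 75 rose at least 2-fold (0.671%) and 23 fell at least 2-fold (0.206%). The 4 TAB arrays all lay above the 4 sham arrays in 1872 features (16.7%) and all below in 1718 (15.4%). The direction of small changes depended on the scaling. Loess, which assumes that most spots of an array balance, gave the counts above. Centring each array on its median in place of loess moved the median of all features to -0.19 and gave 342 rises against 4005 falls. Centring on the tested features, with no loess, gave 1857 rises and 2105 falls. Differences below are on the loess scale, and the count of a gene group under median centring follows where it differs by over 1.5 times. Leaving out sham replicates 1 and 3, which leaves fewer arrays, gave 1376 rises and 1144 falls.

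The direction of a gene's response went with how its level in sham ventricle stood to the whole-body reference. Features were ranked into 5 bins by the ratio in the 4 CHIP-/- sham arrays, which entered neither mean of the wild-type difference. Those arrays did take part in the probe filter and in each feature's estimate of spread. They also share the reference RNA and probes. In the bin with the lowest ratios, up to -0.55, the median difference was 0.19, and 43.2% of features rose and 2.95% fell. In the bin with the highest ratios, 0.59 and above, the median was -0.19, and 8.14% rose and 43.4% fell. Centring on the tested features kept this order, with medians of 0.13 and -0.21. The SD of the ratios over features describes the same pattern and is no second observation. It was 0.91 to 0.97 on the sham arrays and 0.80 to 0.86 on the TAB arrays. Transcripts that the adult ventricle holds above a newborn body fell more often than they rose after TAB, and transcripts it holds below rose more often than they fell. Ratios narrowed on the TAB slide alone would give this order too. That cannot be told apart from the operation, since each group lay on its own slide. Among the 50 features with the highest ratio 23 fell and 4 rose. The troponin genes Tnni3, Tnnt2 and the light chain Myl2, all of these 50, did not pass, with differences of -0.07, 0.13 and 0.11, although a second probe of Tnnt2 was at -1.06. Because a ventricle is a mixture of cells, fewer cells of a type and less RNA per cell cannot be told apart in this or any other value below.

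**Figure D1:**
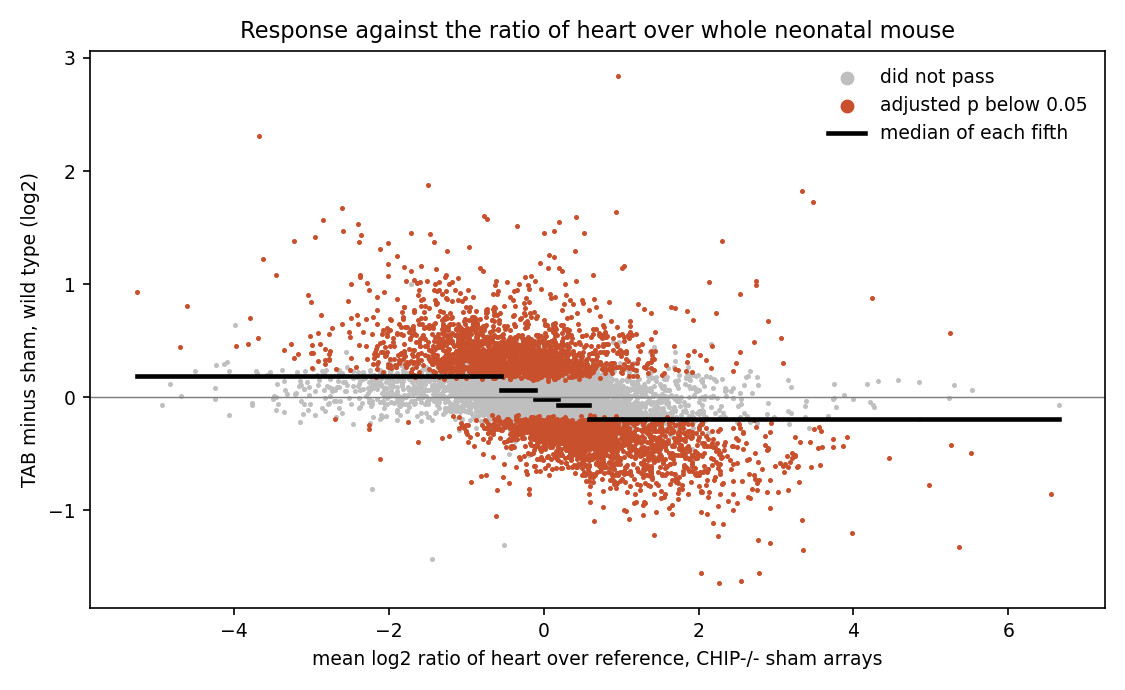
Difference between TAB and sham in wild-type ventricle (vertical axis, log2) against the mean log2 ratio of heart over reference in the CHIP-/- sham arrays (horizontal axis), with 1 point per feature, red where the adjusted p was below 0.05. Black lines mark the median of each of 5 equal bins, which ran from 0.19 at the lowest ratios to -0.19 at the highest; centred on the tested features they ran from 0.13 to -0.21.

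Several transcripts that are read as signs of load on the heart muscle cell rose, among them Nppb, Nppa, Acta1 and Ankrd1. Nppb and Nppa encode the B-type and A-type natriuretic peptides, Acta1 the alpha actin of skeletal muscle and fetal heart, and Ankrd1 a stretch-sensing protein that shuttles between sarcomere and nucleus. Their promoters are shown because these genes are the classic readouts of load, and binding sites of serum response factor and of TEAD factors have been described in such genes. The 250 bases before the start that the promoter table gives are printed 5′ to 3′ in the gene's direction, taken by symbol from RefSeq (GRCm38.p6): Nppa at chr4:148000472-148000721 and Nppb at chr4:147985650-147985899 on the plus strand, Acta1 at chr8:123894776-123895025 and Ankrd1 at chr19:36119845-36120094 on the minus strand. Capitals mark matches of 2 motifs searched on both strands, the CArG box of serum response factor and CATTCC, the core of the M-CAT site of TEAD factors, whose matches did not overlap here. For Nppb the RefSeq gene table has an outer start, chr4:147985786, that lies inside the printed window, so the end of that window lies within the gene's span.
Nppa: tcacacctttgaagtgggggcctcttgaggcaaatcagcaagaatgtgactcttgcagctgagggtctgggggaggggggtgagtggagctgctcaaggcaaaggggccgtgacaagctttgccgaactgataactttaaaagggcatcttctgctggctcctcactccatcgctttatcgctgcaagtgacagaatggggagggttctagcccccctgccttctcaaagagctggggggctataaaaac
Nppb: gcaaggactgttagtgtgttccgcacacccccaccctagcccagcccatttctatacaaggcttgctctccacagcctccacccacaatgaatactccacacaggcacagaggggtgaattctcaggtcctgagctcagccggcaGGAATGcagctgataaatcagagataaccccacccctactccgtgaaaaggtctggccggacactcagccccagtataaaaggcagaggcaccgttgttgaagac
Acta1: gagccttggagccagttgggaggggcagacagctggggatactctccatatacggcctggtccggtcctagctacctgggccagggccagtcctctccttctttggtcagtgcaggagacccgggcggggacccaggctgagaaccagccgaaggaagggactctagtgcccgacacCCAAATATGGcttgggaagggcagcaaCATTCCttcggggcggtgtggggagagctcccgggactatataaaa
Ankrd1: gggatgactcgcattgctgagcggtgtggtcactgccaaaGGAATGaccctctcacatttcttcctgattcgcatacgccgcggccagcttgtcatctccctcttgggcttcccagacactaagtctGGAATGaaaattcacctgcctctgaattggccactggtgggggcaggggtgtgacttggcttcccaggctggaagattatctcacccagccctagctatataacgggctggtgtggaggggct
Acta1 held a CArG box that starts 73 bases before the gene's start and a CATTCC that starts 46 bases before it. Nppb held CATTCC on the opposite strand 105 bases before the promoter table's start, which is within the gene's span by its outer start, and Ankrd1 held it on the opposite strand 210 and 123 bases before. These letters do not occur in the window of Nppa. Of all 27025 promoters of the table, 1.4% held a CArG box and 12.6% held CATTCC in these 250 bases. Of the 55 genes with a promoter in the table that rose at least 2-fold, 3 held a CArG box and 8 held CATTCC. A match is a description of the letters and no evidence of binding.

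Nppb read 3.91, 4.6, 4.07 and 4.71 on the sham arrays and 6.33, 6.17, 5.89 and 6.20 on the TAB arrays. The groups lay far apart, with a difference of 1.82 (SE 0.18, adjusted p = 7.4e-07), a 3.54-fold rise. Nppa read 4.02, 3.76, 3.82 and 5.19 after sham and 5.41, 6.09, 5.86 and 6.36 after TAB, a difference of 1.73 (SE 0.26, adjusted p = 4.4e-05). Sham replicate 4 was well above the other sham arrays for Nppa and came close to TAB replicate 1, although the groups did not overlap. Acta1 read -3.04, -2.74, -3.11 and -2.44 after sham and -1.48, -1.51, -1.61 and -1.22 after TAB (difference 1.38, SE 0.12, adjusted p = 3.7e-07). Ankrd1, chosen after its values were seen, read 4.35, 3.95, 4.50 and 5.03 after sham and 5.30, 5.50, 5.17 and 5.37 after TAB (difference 0.88, SE 0.17, adjusted p = 0.00069). For Ankrd1 too the highest sham array was replicate 4. With median centring the difference of Ankrd1 was 0.49 and did not pass, while those of Nppb, Nppa and Acta1 were 1.54, 1.33 and 0.87 and did.

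Of 11 measured genes of load peptides and their receptors, 2 rose and 3 fell. Corin, the heart protease that cuts the precursor of the A-type peptide, read 2.87 to 3.23 after sham and 2.32 to 2.56 after TAB, a difference of -0.61 (SE 0.10, adjusted p = 6.8e-05). Agtr1a, the angiotensin receptor, fell from 1.36 to 1.59 on the sham arrays to 0.50 to 0.78 on the TAB arrays, by 0.86 (SE 0.09, adjusted p = 9.9e-07). Endothelin (Edn1), angiotensinogen (Agt), the converting enzyme Ace and the clearance receptor Npr3 did not pass, at -0.03, 0.21, 0.13 and -0.08. The largest rise of all was that of Nmrk2, a muscle kinase that makes the NAD precursor from nicotinamide riboside. It read 1.89, 1.28, 1.23 and 2.40 after sham and 3.51, 5.17, 4.59 and 4.89 after TAB, a 7.16-fold rise (difference 2.84, SE 0.28, adjusted p = 8.2e-07). TAB replicate 1 was the lowest TAB array by over 1 on the log2 scale.

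**Figure D2:**
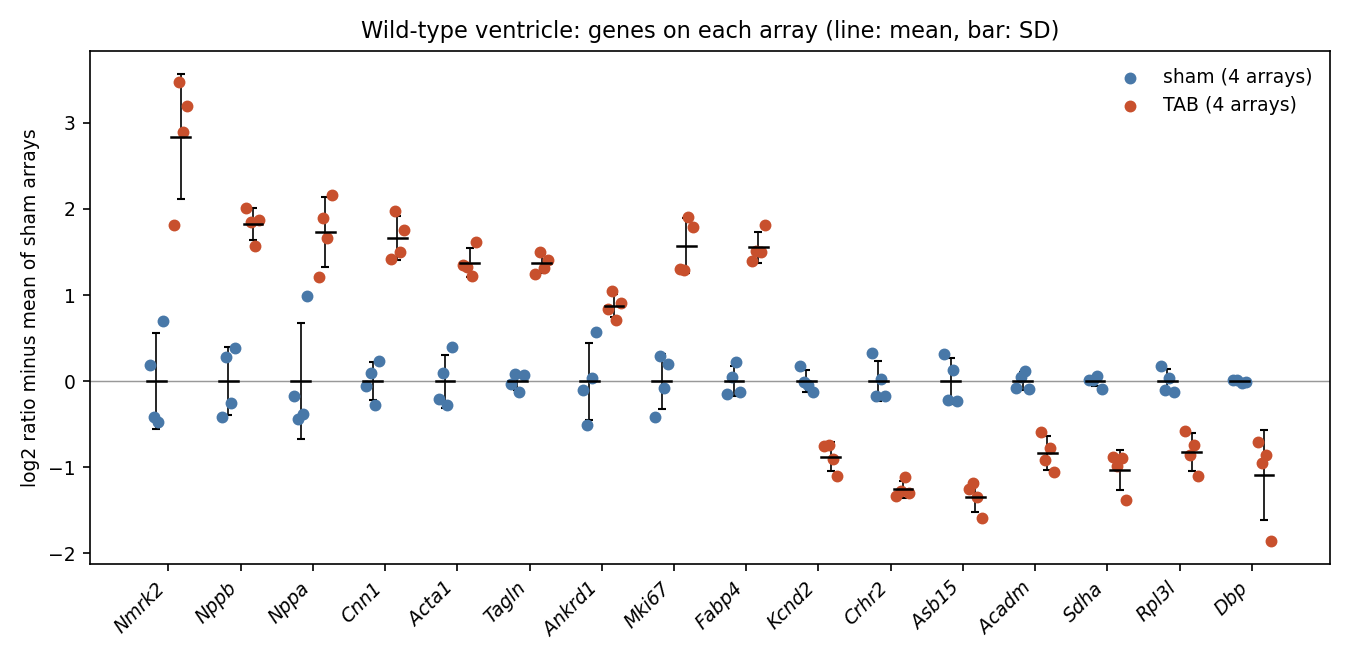
Log2 ratios of 16 genes on each wild-type array, minus the mean of the 4 sham arrays (vertical axis), with sham in blue and TAB in red. Black lines are group means and bars the SD of 4 arrays. In none of these genes do the groups overlap; Nmrk2 rose most, by 2.84, and sham replicate 4 is the high blue point of Nppa and Ankrd1.

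Among 10 measured genes of the thick filament and titin, Myh7, the slow beta myosin heavy chain, was the only one that rose, and 3 fell, Ttn and Myh6 among them; with median centring 8 fell. Myh6, the fast alpha heavy chain, fell by 0.42 (SE 0.11, adjusted p = 0.0051). It did not pass when brightness was quantile normalized and the spread of the ratios scaled alike between arrays. Myh7 read -0.93, -1.17, -0.79 and 0.56 after sham and 0.21, 1.14, 1.05 and 1.65 after TAB, so that sham replicate 4 lay above TAB replicate 1. Ttn, titin, fell by 0.63 (its 9 probes ranged from -0.77 to -0.30), and its groups overlapped. Of 17 thin filament genes 5 rose and 4 fell, against 3 and 6 with median centring. The tropomyosins Tpm4 and Tpm3, which serve the cytoskeleton of many cells, rose by 0.95 (SE 0.09) and 0.71 (SE 0.08), although a second probe of Tpm3 was at 0.08. Lmod3, Tmod1 and Nebl, which set thin filament length, fell by 0.57, 0.53 and 0.49.

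Of 21 measured genes of the Z-disc and of mechanical stress, 9 rose and 2 fell, with a median of 0.22. With median centring 3 rose and 5 fell, so this group's direction rests on the scaling. Synpo2l, an actin-binding protein of the Z-disc, read 0.46 to 0.72 after sham and 2.01 to 2.41 after TAB (difference 1.59, SE 0.14, adjusted p = 1.9e-07), but a second probe was at 0.11. Fhl1, which couples stretch to growth signals, rose by 1.15 (SE 0.10) and by 0.65 with median centring. Xirp2, a repeat protein of the intercalated disc and Z-disc, read 2.29, 2.17, 2.02 and 2.38 after sham and 2.87, 3.57, 3.11 and 3.40 after TAB. These 3 rose under all alternatives tried, although the mean over probes moved Synpo2l by over 1.5 times.

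The contractile genes typical of smooth muscle and of non-muscle cells mostly rose: 11 of 14 rose and 2 fell, with a median of 0.51, and 7 rose and 2 fell with median centring. Cnn1, calponin, which binds actin in smooth muscle, read -2.56, -2.40, -2.78 and -2.26 after sham and -1.08, -0.52, -1.0 and -0.74 after TAB, a 3.17-fold rise (difference 1.67, SE 0.19, adjusted p = 3.9e-06). Tagln, the actin-binding transgelin, rose by 1.36 (SE 0.11) and Myl9, the smooth muscle regulatory light chain, by 1.01 (SE 0.17). Myl6 and Myh9, light and heavy chains of non-muscle myosin, rose by 0.92 and 0.83. Acta2 and Myh11, the actin and the myosin heavy chain that define differentiated smooth muscle, moved little: Acta2 did not pass (0.17) and Myh11 rose by 0.35, which was 0.08 and did not pass with median centring. Smtn, smoothelin of the contractile apparatus, fell by 0.42 (SE 0.09, adjusted p = 0.0011). Of 12 genes of this group with a promoter in the RefSeq table, 3 held a CArG box and 6 held CATTCC in the 250 bases before the start.

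Pairs of related genes, of which 1 is the form of adult heart or muscle and the other is broadly or fetally used, differed in their change. In each pair the broad form had the lower mean ratio to the reference on the sham arrays. The gap in ratio between the forms thus narrowed after TAB, for Eef1a1 minus Eef1a2 from a mean of -5.3 to -3.76. This is the same direction as in the bins above and is no separate observation. The 13 pairs were picked after values were seen, so their counts describe and do not test. In 11 pairs the broad form rose and in 8 the muscle form fell; no muscle form rose. The change of the broad form minus that of the muscle form was above 0 in 13 of 13, and in 12 of 13 under every alternative, the exception being the hexokinases Hk1 and Hk2 (0.10, and -0.03 with the mean of all probes). Centring of an array shifts both members alike and so drops out of this contrast, whereas a change in the width of the ratios does not. In 8 pairs the groups did not overlap, against 32.1% of all features.

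Elongation factor 1 alpha, which carries transfer RNA to the ribosome, gave the largest contrast among pairs with separate groups other than the alpha actins. Eef1a1, the form of most cells, read -2.12, -2.03, -2.05 and -1.94 after sham and -1.39, -0.93, -1.14 and -0.96 after TAB (0.93, SE 0.09). Eef1a2, the form of adult muscle and neurons, read 3.20, 3.39, 3.45 and 3.03 after sham and 2.80, 2.75, 2.69 and 2.37 after TAB (-0.62, SE 0.12). The contrast between the Eef1a1 and Eef1a2 changes was 1.54. Ribosomal protein L3 moved the same way, with Rpl3 at 0.49 (SE 0.07) and the muscle-only Rpl3l at -0.82 (SE 0.14, adjusted p = 0.00019), a contrast of 1.31. For phosphofructokinase, the committed step of glycolysis, Pfkp rose by 0.51 and the muscle form Pfkm fell by 0.65, from 1.87 to 1.91 on the sham arrays to 1.2 to 1.29 on the TAB arrays. The insulin-responsive glucose transporter Slc2a4 fell by 0.61, while the basal transporter Slc2a1 was at 0.14 and did not pass. With median centring the rises of Rpl3 and Pfkp were 0.07 and 0.25 and did not pass. For the alpha actins the contrast was 1.58, almost all of it from Acta1, since the cardiac Actc1 fell by 0.20 only; the call of Actc1 was lost without any of sham replicates 1, 2 and 3 and TAB replicates 3 and 4, at -0.20 to -0.18. In the 3 pairs of cytochrome oxidase subunits (Cox6a1 with Cox6a2, Cox7a2 with Cox7a1, Cox8a with Cox8b) the broad forms rose by 0.59, 0.30 and 0.35, and the heart forms did not pass, at 0.02, -0.02 and 0.09; with median centring none of the 3 broad forms passed as a rise.

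**Figure D3:**
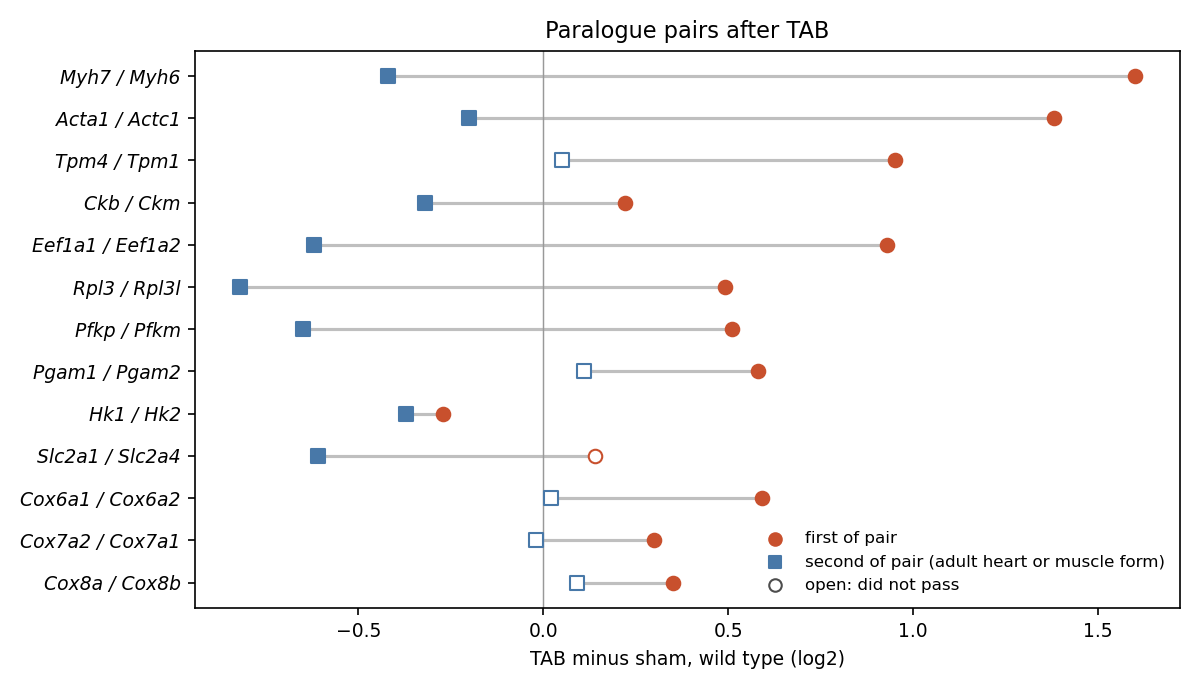
Difference between TAB and sham (horizontal axis, log2) for the 13 pairs, with the broad or fetal form as circles and the adult heart or muscle form as squares, open where the adjusted p was 0.05 or more. The circle lies right of the square in each pair, by 2.01 for Myh7 over Myh6 and by 0.10 for Hk1 over Hk2; with the mean of all probes the hexokinase pair turned to -0.03.

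Genes of the heart's electrical activity mostly fell. Of 16 measured genes of a list of mainly voltage-gated channels, which also holds the inward rectifiers Kcnj3 and Kcnj8, 11 fell and 1, Kcnj8, rose. Their median was -0.40, and with median centring 12 fell. Kcnd2, a pore subunit of the transient outward potassium current that repolarises the muscle cell, read 2.40, 2.21, 2.18 and 2.10 after sham and 1.47, 1.48, 1.32 and 1.12 after TAB (difference -0.88, SE 0.10, adjusted p = 4.2e-06). Its accessory subunit Kcnip2 fell by 0.95 (SE 0.13) and was well above background on 4 sham arrays and on 1 TAB array. Kcnj3, a subunit of the channel that acetylcholine opens, fell by 1.02 (SE 0.16), and Cacnb2, the beta subunit of the L-type calcium channel, by 0.93 (SE 0.14). For these 3 the TAB signal lay near background, and the scanner software's own log ratios gave falls of 2.37, 2.27 and 2.93 for Kcnip2, Kcnj3 and Cacnb2; in the submitters' own table Cacnb2 did not pass. The anion exchanger Slc4a3, which regulates pH, read 2.02 to 2.43 after sham and 0.80 to 1.48 after TAB and fell by 1.11 (SE 0.13); a second probe fell by 0.72. Abcc9, the regulatory subunit of the ATP-sensitive potassium channel, fell by 1.02, and its 3 probes ranged from -1.02 to -0.68.

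Of 12 genes of the sarcoplasmic reticulum, which stores the calcium for each beat, 6 fell and 2 rose, and none rose with median centring. Pln, phospholamban, the brake on the calcium pump, read 6.64, 6.4, 6.63 and 6.49 after sham and 5.86, 5.67, 5.78 and 5.39 after TAB (-0.86, SE 0.11, adjusted p = 1.8e-05). The pump itself, Atp2a2, fell by 0.49 (SE 0.10), from 5.39 to 5.55 on the sham arrays to 4.86 to 5.17 on the TAB arrays. Other probes fell by up to 1.45, and the call was lost under quantile normalized brightness with scaled ratios. Hrc, the histidine-rich calcium-binding protein of the store, fell by 0.98 (SE 0.13). Casq2, calsequestrin, did not pass (-0.18), and Sri, the calcium sensor sorcin, rose by 0.48, which was 0.19 and did not pass with median centring.

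Of 12 measured genes of adrenergic and related signalling 8 fell and 1 rose, with a median of -0.35. The rise was that of Grk5, a kinase that turns off receptors of this kind, by 0.21 (adjusted p = 0.048), and no gene of the group rose when any 1 of the 8 arrays was left out or with median centring. Crhr2, the receptor for urocortins in heart, read 3.16, 2.66, 2.86 and 2.67 after sham and 1.5, 1.56, 1.72 and 1.54 after TAB, a 2.39-fold fall (difference -1.26, SE 0.12, adjusted p = 4e-07). Pde4a, a cyclic AMP phosphodiesterase, Adra1b, an alpha adrenergic receptor, and Adcy6, an adenylyl cyclase, fell by 0.83, 0.76 and 0.70. Adrb1, the main beta receptor of heart muscle, did not pass at -0.29. Among 10 cardiac transcription factors 6 fell and none rose. Klf15, which restrains growth and drives lipid use, read 2.02 to 2.46 after sham and 1.05 to 1.65 after TAB (-0.96, SE 0.16), Hopx, a homeodomain-only protein, fell by 0.76, and Tbx5, of the T-box family, by 0.67. In the calcineurin pathway Rcan1, a feedback inhibitor whose transcript calcineurin induces, read 0.51, 0.40, 0.27 and 1.2 after sham and 1.66, 2.01, 1.78 and 2.10 after TAB (1.29, SE 0.19, adjusted p = 3.1e-05); a second probe was at 0.32. Of 16 genes of this pathway 7 fell and 2 rose, against 11 and 1 with median centring. Mef2d and Mef2a fell by 0.49 and 0.45, and Srf did not pass at -0.07.

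At the intercalated disc, which joins the muscle cells, 4 of 12 genes fell and none rose. The desmosomal genes Dsg2 and Dsp fell by 0.81 and 0.52, and Gja1, connexin 43 of the gap junction, fell by 0.43 from 1.88 to 2.10 on the sham arrays to 1.36 to 1.64 on the TAB arrays. The muscle ubiquitin ligases and ASB genes, which mark proteins for breakdown, gave 10 falls and no rise among 18. Asb15 read 3.66, 3.13, 3.48 and 3.12 after sham and 2.09, 2.16, 2.00 and 1.76 after TAB (-1.35, SE 0.12, adjusted p = 3.3e-07). A second probe of Asb15 was at -0.64. Rnf207, a ligase linked to cardiac repolarisation, fell by 1.64 (SE 0.11), and the atrophy ligases Trim63 and Fbxo32 fell by 0.61 each.

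Genes of fuel use fell widely. Of 27 measured genes of fatty acid uptake and oxidation 21 fell and 1 rose, with a median of -0.52, and 25 fell with median centring. Acadm, the medium-chain acyl-CoA dehydrogenase, read 1.86, 1.99, 2.06 and 1.85 after sham and 1.35, 1.03, 1.16 and 0.88 after TAB (-0.83, SE 0.10, adjusted p = 5.2e-06). Slc25a20, the carnitine carrier, and Acaa2, the last thiolase of the cycle, fell by 0.75 each, and Hadha of the trifunctional protein by 0.73. The fatty acid transporter Slc27a1, outside this list, fell by 1.08 (SE 0.09). The binding protein Fabp3 (-0.01) and the receptor Cd36 (0.05) did not pass. The exception was Pdk4, the kinase that closes pyruvate dehydrogenase and is induced by fatty acids and fasting. It read -0.11, -0.25, 0.44 and -0.87 after sham and 0.62, 1.07, 1.10 and 2.24 after TAB (1.45, SE 0.35, adjusted p = 0.0032), with TAB replicate 4 the highest and sham replicate 4 the lowest.

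The breakdown of branched-chain amino acids and ketones fell in 17 of 20 genes (median -0.40) and the tricarboxylic acid cycle with pyruvate entry in 23 of 26 (median -0.41); none rose in either group. Bckdha and Bckdhb, both subunits of the branched-chain dehydrogenase, fell by 0.64 each, and Ivd, the next enzyme for leucine, by 0.68. Sdha, the flavoprotein of succinate dehydrogenase, read 2.08, 2.08, 2.12 and 1.98 after sham and 1.19, 1.08, 1.17 and 0.69 after TAB (-1.03, SE 0.11, adjusted p = 1.6e-06), although its 3 probes ranged down to -0.19. Ogdh, of the oxoglutarate dehydrogenase, fell by 0.86 and Idh2 by 0.72. Cs, citrate synthase, which is often taken as a measure of mitochondria, fell by 0.39 (SE 0.08).

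The respiratory chain did not follow the cycle that feeds it on the loess scale. Of 37 measured subunits of complex I, 6 fell and 5 rose, with a median of 0.06. The count of rises rested on single arrays: it was 1 without sham replicate 4, 2 without sham replicate 1, 0 without TAB replicate 1 and 8 without TAB replicate 2. With median centring 29 of the 37 fell and none rose, and with centring on the tested features 15 fell. Of 36 subunits of complexes III and IV and ATP synthase 6 rose and 4 fell, with 2 falls when any of sham replicates 2 and 3 and TAB replicates 2, 3 and 4 was left out, and with centring on the tested features 18 fell and 1 rose, and with median centring 28 fell and none rose. Within complex I, Ndufa10 fell by 0.62, and the core subunits Ndufv1 and Ndufs1 by 0.42 each. Of 47 proteins of the mitochondrial ribosome 15 fell and 3 rose, with 9 falls without sham replicate 1, 5 without sham replicates 1 and 3, and 36 with median centring; Mrpl39 fell by 0.56 and Mrpl9 by 0.51.

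Of 22 genes of glucose use 10 fell and 3 rose, against 17 and 0 with median centring. Pfkfb1, which makes the activator of phosphofructokinase, fell by 0.93, Pygm, muscle glycogen phosphorylase, by 0.71, and Gys1, glycogen synthase, by 0.49. Pgam1, a mutase of glycolysis, rose by 0.58 (0.18 and not passing with median centring), and the lactate dehydrogenase Ldha (0.11) and the kinase Pgk1 (0.03) did not pass. Of 19 metabolic regulators 14 fell and 1 rose, Pparg, the receptor that drives fat storage, by 0.27 (adjusted p = 0.0024); with median centring 17 fell and none rose. Ppara, the receptor that switches on fatty acid oxidation, read 0.29, 0.66, 0.60 and 0.61 after sham and 0.04, -0.02, -0.03 and -0.11 after TAB (-0.57, SE 0.08, adjusted p = 1.5e-05). Perm1 fell by 0.51, and Ppargc1b by 0.49, while its relative Ppargc1a did not pass at -0.04. A second probe of Ppargc1a was at 0.38 and passed as a rise. Mid1ip1, an activator of fatty acid synthesis, fell by 1.29 (SE 0.17). In NAD and high-energy phosphate metabolism 9 of 17 fell and 3 rose, Nmrk2 among the latter; 14 fell with median centring. Nampt, the enzyme that recycles nicotinamide to NAD, fell by 0.78 (SE 0.13) from 1.71 to 1.96 on the sham arrays to 0.75 to 1.43 on the TAB arrays, and Nmnat3, the last step of the path in mitochondria, by 0.46. Nmrk2 and Nampt, which feed separate entries of the same path, thus moved in opposite directions, each with groups that did not overlap.

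**Figure D4:**
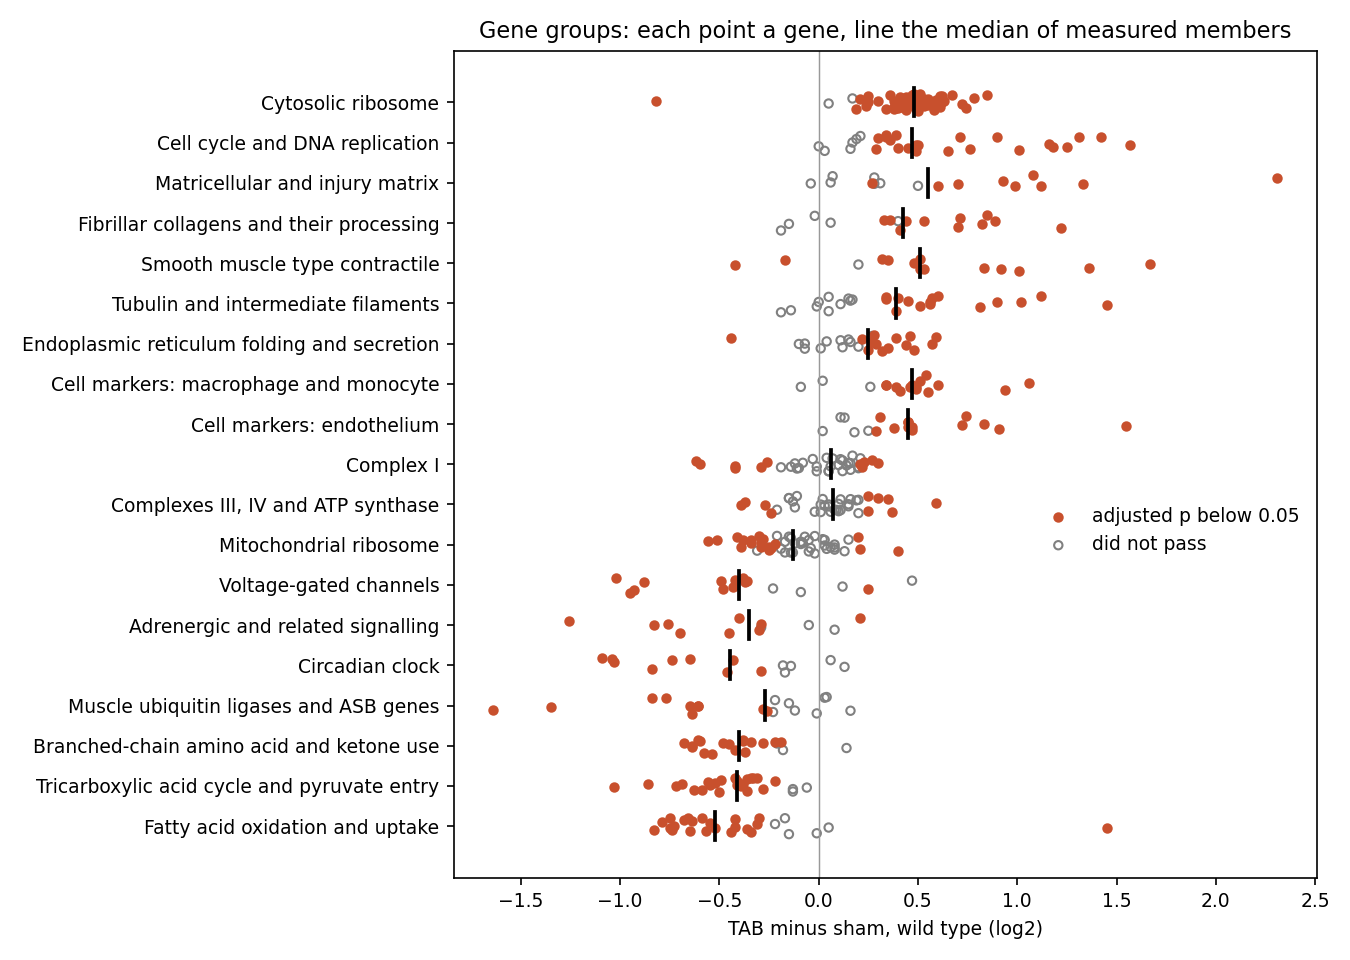
Difference between TAB and sham (horizontal axis, log2) of every measured gene of 19 groups, red where the adjusted p was below 0.05, with a black line at each group's median. Medians ran from 0.55 in the matricellular group to -0.52 in fatty acid oxidation. With median centring points lie lower, so that the ribosome has 1 rise in place of 55, and complex I, here at a median of 0.06, has 29 falls.

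Genes of protein synthesis split. Of 58 measured proteins of the cytosolic ribosome 55 rose and 1, Rpl3l, fell, with a median of 0.48, and in 55 the TAB arrays all lay above the sham arrays. The count rested on the scaling: with median centring 1 rose, and with centring on the tested features 30 rose. Relative to the median of all features, their median was 0.20 to 0.49 under the alternatives tried. Rpl39 read -0.61, -0.66, -0.65 and -0.69 after sham and 0.03, 0.12, 0.09 and 0.28 after TAB (0.78, SE 0.07, adjusted p = 4.8e-07), and Rpl38 rose by 0.74, which was 0.20 and did not pass with median centring. Rpl4 (0.05) and Rpl14 (0.17) did not pass. Translation factors and transfer RNA synthetases did not rise with the ribosome: 10 of 30 fell and 5 rose, against 17 and 1 with median centring, and Iars, the isoleucine enzyme, fell by 0.49. Of 26 genes of ribosome biogenesis and nucleotide synthesis 7 rose and 2 fell, against 1 and 6 with median centring. The uridine kinase Uck2 rose by 0.86 (SE 0.10), and the polyamine enzyme Odc1 by 0.48, which was 0.11 and did not pass with median centring.

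The endoplasmic reticulum's folding and secretion genes rose in 13 of 25 and fell in 1, with a median of 0.25, but none rose and 4 fell with median centring. The chaperone Hsp90b1 rose by 0.59, the translocon subunit Sec61b by 0.57 and the disulfide isomerase Pdia3 by 0.48. The stress markers of this compartment did not pass: Hspa5 was at 0.11, Ddit3 at -0.07 and Atf3 at -0.07. Tubulins and intermediate filaments rose in 15 of 25 and fell in none, with 6 rises and 4 falls under median centring. Vim, vimentin, which is found in fibroblasts and endothelium, read -1.61, -1.45, -1.66 and -1.40 after sham and -0.38, -0.01, -0.05 and 0.11 after TAB (1.45, SE 0.11, adjusted p = 3.8e-08). The thymosin Tmsb4x, which binds free actin, rose by 1.12 and the tubulins Tuba1c and Tuba1a by 1.02 and 0.90. Des, the desmin of heart muscle, did not pass at 0.17.

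Genes of the dividing cell rose in 22 of 28 and none fell, with a median of 0.47; 11 rose with median centring. Mki67, a marker of dividing nuclei, read -2.95, -2.24, -2.61 and -2.33 after sham and -1.23, -1.24, -0.63 and -0.74 after TAB (1.57, SE 0.18, adjusted p = 4.2e-06). Birc5, Cdc20 and Ccna2, which act in mitosis and at its entry, rose by 1.42, 1.31 and 1.18, and the related Cks2 by 1.53. The replication genes gave smaller differences, Mcm6 0.71, Mcm3 0.50 and Pcna 0.34, the last 2 not passing with median centring. Mcm2 did not pass (0.16), and a second probe of Mcm3 was at 0.06. Cdkn1a, which halts the cycle, rose by 0.76, with TAB replicate 4 at 0.65 against -0.44 to -0.10 on the other TAB arrays. Shcbp1, Pbk and the histone gene H2ac13, active in dividing cells, were well above background on all 4 TAB arrays and on none of the 4 sham arrays. They were named for this pattern after their values were seen. Their normalized Cy5 signal was about 1.56-fold, 1.52-fold and 1.58-fold higher after TAB, and the groups overlapped in the log2 ratio of Pbk.

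Genes of the extracellular matrix rose in every list of them, and sham replicate 4 and TAB replicate 1 often stood apart from their groups. Among 16 matricellular and injury genes 9 rose and none fell (median 0.55), with 6 rises under median centring and 5 without sham replicates 1 and 3. Postn, periostin, made by activated fibroblasts, read -3.52, -3.43, -3.51 and -1.75 after sham and -1.94, -0.21, -0.82 and 0.00 after TAB (2.31, SE 0.36, adjusted p = 7.6e-05). Sham replicate 4 lay above TAB replicate 1, so the groups overlapped. Thbs4, a thrombospondin, rose by 1.12 (SE 0.14), Ccn2, the connective tissue growth factor, by 1.08 (SE 0.20) and Mfap5, a microfibril protein, by 1.33 (SE 0.18), each with separate groups; a second probe of Thbs4 was at 0.37. Tnc, tenascin, and Thbs1 did not pass, at 0.28 and 0.50.

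Of 16 genes of fibrillar collagens and their processing 11 rose and none fell (median 0.42). Only 3 had separate groups, and the count was 5 without sham replicates 1 and 3, and 5 rises and 2 falls with median centring. Serpinh1, the collagen chaperone, read -0.51, -0.19, -0.53 and -0.36 after sham and 0.15, 0.68, 0.55 and 0.59 after TAB (0.89, SE 0.11, adjusted p = 1e-05). Col3a1 read -3.19, -3.04, -3.21 and -2.27 after sham and -2.46, -1.38, -1.79 and -1.2 after TAB (1.22, SE 0.25), with the same overlap of sham replicate 4 and TAB replicate 1 as Postn. Basement membrane and network collagens rose in 9 of 17 and fell in 1, Lamb2 (-0.68, SE 0.07), and 5 rose and 2 fell with median centring. Col4a1 rose by 1.02 with separate groups, Sparc, which binds it, by 0.95 with separate groups, and Col8a1 by 1.51 with overlapping groups. Elastic fibre genes rose in 6 of 12, which was 1 without sham replicates 1 and 3, and 1 rise and 3 falls with median centring; Ltbp2, which binds fibrillin, rose by 1.14 with overlapping groups and did not pass without sham replicates 1 and 3.

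The small proteoglycans rose in 7 of 11 and none fell, with 3 rises and 2 falls under median centring. Lum, lumican, read -0.47, -0.73, -0.55 and -0.72 after sham and 0.12, 0.34, 0.25 and 0.32 after TAB (0.88, SE 0.15), and here sham replicate 4 was not high. Aspn, asporin, rose by 0.85 (SE 0.10). Matrix proteases and their inhibitors rose in 9 of 16 and none fell, with 5 rises and 1 fall under median centring. Timp1, the inhibitor of metalloproteinases, read -0.78, -0.94, -0.85 and -0.03 after sham and 0.42, 1.18, 0.70 and 1.43 after TAB (1.58, SE 0.22, adjusted p = 2.7e-05), although its 3 probes ranged down to 0.58. Serpinb1a, an inhibitor of neutrophil proteases, rose by 1.37 (SE 0.32) and did not pass in the submitters' table, and the protease Adamts1 rose by 0.78 (SE 0.12, with a second probe at 0.08). The gelatinase Mmp2 did not pass, at 0.04.

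**Figure D5:**
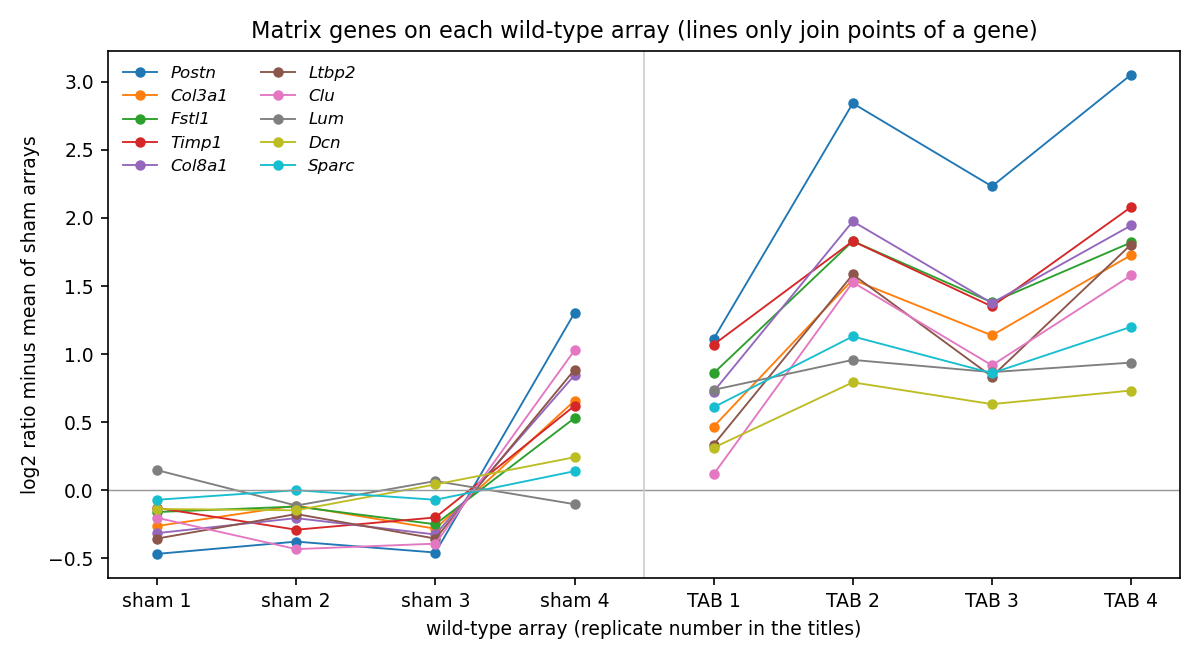
Log2 ratios of 10 matrix genes on each wild-type array, minus the mean of the 4 sham arrays (vertical axis); the lines only join the points of a gene, since the arrays of a group have no order. Sham replicate 4 lies above the other sham arrays for most of these genes and TAB replicate 1 is the lowest TAB array for all 10, by -1.94 against -0.82 or more in the log2 ratio of Postn, while Lum and Dcn vary less.

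Among TGF-beta and BMP genes, the main fibrosis pathway, 8 of 16 rose and none fell, with 2 rises and 1 fall under median centring. Fstl1, a secreted follistatin-like glycoprotein, read -2.29, -2.25, -2.38 and -1.60 after sham and -1.27, -0.30, -0.75 and -0.31 after TAB (1.47, SE 0.20, adjusted p = 1.5e-05). Tgfb2 and Tgfb3 rose by 0.46 and 0.48, whereas Tgfb1 was at 0.06 and did not pass; neither rise passed with median centring, nor that of Tgfb3 without sham replicates 1 and 3. Growth factor genes moved both ways, with 10 rises and 2 falls among 22 and 3 rises and 5 falls under median centring. Igfbp7, a secreted IGF-binding protein, read 0.19, 0.25, 0.31 and 0.54 after sham and 1.11, 1.70, 1.39 and 1.64 after TAB (1.14, SE 0.12). Hbegf, an EGF receptor ligand, rose by 0.83 and Igf1 by 0.62, while Vegfa, the main capillary growth factor of muscle, fell by 0.44 (SE 0.09, adjusted p = 0.0012), with another probe at -0.15. Tnfrsf12a, the receptor of TWEAK, read 0.20 to 0.64 after sham and 1.8 to 2.1 after TAB (1.47, SE 0.13), and Mgp, the matrix Gla protein that inhibits calcification, rose by 1.64 (SE 0.17).

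Markers of endothelium rose in 13 of 18 and none fell (median 0.45), with 5 rises under median centring. Fabp4, the fatty acid binding protein of capillaries, read -0.41, -0.21, -0.04 and -0.38 after sham and 1.14, 1.25, 1.24 and 1.55 after TAB, a 2.93-fold rise (difference 1.55, SE 0.10, adjusted p = 2.8e-08). The defining genes Pecam1 and Cdh5 rose less, by 0.38 (SE 0.07) and 0.45 (SE 0.12), and neither passed with median centring, at 0.19 and 0.17. A second probe of Cdh5 was at 0.14. Ly6c1 and Cldn5 rose by 0.91 and 0.83. Fabp4 is also an adipocyte gene; 3 of 8 adipocyte markers rose, none with median centring, and Adipoq, which defines that cell, did not pass at 0.04.

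Macrophage and monocyte markers rose in 14 of 17 (median 0.47), with 6 rises and 1 fall under median centring. Of the defining genes Adgre1 rose by 0.51 (SE 0.11, and 0.27, which did not pass, with median centring), while Csf1r (-0.09) and Cd68 (0.02) did not pass. Ctss, a lysosomal protease of these cells, read -0.51, -0.52, -0.55 and -0.02 after sham and 0.30, 0.79, 0.62 and 0.93 after TAB (1.06, SE 0.14), and Lyz2, lysozyme, rose by 0.94 (SE 0.09), with a second probe at 0.22. Of lymphocyte, neutrophil and mast cell markers only 3 of 22 were measured, and Cd3e, Cd79a and S100a8 were not well above background on any of the 8 arrays. Of 15 measured cytokine and chemokine genes 4 rose and 2 fell, against 3 and 4 with median centring and 7 and 1 with centring on the tested features. Ccl6 and Ccl9, chemokines of myeloid cells, rose by 0.86 and 0.74, and Il6st, a receptor subunit shared by cytokines of the interleukin 6 family, fell by 0.25. Complement and coagulation genes rose in 11 of 20 and fell in 2, but in 1 against 3 with median centring, and in 6 against 0 without sham replicates 1 and 3; C1qa, C1qb and C1qc, made by macrophages, rose by 0.27, 0.38 and 0.42, and none of these passed with median centring.

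Fibroblast markers rose in 9 of 16 and fell in 1, against 4 and 2 with median centring. Cd34 read 0.09 to 0.19 after sham and 0.85 to 1.34 after TAB (1.03, SE 0.09, adjusted p = 4.9e-07), and Gsn, gelsolin, fell by 0.65 and did not pass without sham replicates 1 and 3. The defining receptor Pdgfra did not pass, at 0.14, and Dcn, decorin, rose by 0.62 (0.14 and not passing with median centring). Among smooth muscle and pericyte markers 9 of 14 rose and 2 fell, with 5 rises under median centring; Mcam rose by 0.76 and Cspg4 by 0.64, and Rgs5, of pericytes, rose by 0.37, which was 0.08 and did not pass with median centring. Of 11 ventricular muscle markers 1 rose and 5 fell, with a median of -0.07 (0 and 7 with median centring). Of 12 skeletal muscle markers 3 rose and 2 fell, against 1 and 6 with median centring. Without sham replicate 1 or without TAB replicate 4, 1 rose. Mylpf, a defining gene, did not pass at -0.15. The other defining gene, Myh4, had probes at -0.31 and 0.26, of which only the latter passed, as a rise. Atrial markers did not move together, with 1 rise, Nppa, and 1 fall among 10 (5 falls with median centring), and Myl7 itself at -1.31 with adjusted p = 0.29.

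Genes of the circadian clock fell in 9 of 14 and none rose (median -0.44). Dbp, a factor whose level swings strongly over the day, read 3.19, 3.19, 3.15 and 3.16 after sham and 2.47, 2.22, 2.32 and 1.32 after TAB (-1.09, SE 0.23, adjusted p = 0.0011). The sham arrays lay between 3.15 and 3.19, and TAB replicate 4 was the lowest of all. The same array was lowest for Tef (0.31 against 0.95 to 1.23 on the other TAB arrays; difference -0.84) and Ciart (0.14 against 0.48 to 0.92; -1.03), and Hlf fell by 1.04. The sources used here do not give the hour of tissue collection, and its part was not tested. Of 11 clock genes with a listed promoter, Per1, Ciart and Tef (3) held CACGTG, the site of the clock activators, in the 250 bases before the start, against 8.73% of tested genes.

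Cytosolic chaperones fell in 9 of 28 and rose in 2, against 20 and 0 with median centring. Fkbp4, a co-chaperone of steroid receptors, read 1.04, 1.13, 0.90 and 0.84 after sham and 0.42, 0.24, 0.38 and -0.22 after TAB (-0.77, SE 0.11). Stub1, which encodes CHIP, fell by 0.36 (SE 0.10, adjusted p = 0.011) and by 0.22 without TAB replicate 3. The heat-inducible Hspa1a did not pass (-1.43, adjusted p = 0.079), since its sham arrays spread from -1.31 to 2.61. The metallothioneins, which bind zinc and copper and respond to glucocorticoids, rose: Mt2 read -2.37, -2.11, -2.12 and -1.66 after sham and -0.58, -0.14, -0.45 and 0.44 after TAB (1.88, SE 0.21, adjusted p = 2.1e-06), and Mt1 rose by 0.89, with a second probe at -0.02. Of 13 glucocorticoid-responsive genes 4 rose and 2 fell (4 and 4 with median centring), Fkbp5 (-0.43) and Tsc22d3 (0.32) not passing. Interferon and antigen presentation genes rose in 8 of 24 and fell in 1, with 4 rises without TAB replicate 3, 5 without sham replicate 2, 3 with median centring, 11 without TAB replicate 1 and 15 rises and no fall with centring on the tested features; B2m rose by 0.84, though its 3 probes ranged from -0.19, and Ifi27 by 1.14.

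Of 10070 named features, 57 were well above background on all 4 sham arrays and on no TAB array, and 28 of these passed as falls. The reverse pattern held for 7, all of which passed as rises. Detection goes with signal, so these directions follow largely from the choice and are no result of their own. Klhdc1 read 1.07, 1.09, 1.11 and 1.17 after sham and 0.20, 0.07, 0.13 and 0.30 after TAB (-0.93, SE 0.07, adjusted p = 3.8e-08). Its normalized Cy5 signal was about 1.65-fold lower after TAB. That of Tbc1d10c and of the netrin gene Ntn1 was about 1.56-fold and 1.47-fold lower, and Ntn1 did not pass with centring on the tested features. These genes too were chosen after their values were seen. Such folds set the bright group's mean against the higher of the dim probe's signal and the lowest signal called well above background. That floor raised the dim mean of Klhdc1 from 6.16 to 6.22 and that of Tbc1d10c (6.43) and Ntn1 (6.35) not at all. The folds are thus estimates from 4 arrays a group. The share of detected spots was 27.0% to 35.2% on the TAB arrays, lowest on replicate 1, and 34.4% to 37.7% on the sham arrays. How far this set the counts was not tested.

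The same comparison in CHIP-/- ventricle shares no array with the wild-type one. The test of the difference between the responses passed for 370 of 11142 features (3.32%), 213 higher and 157 lower in CHIP-/-. The count was 164 without wild-type sham replicate 4, 201 without TAB replicate 1 and 232 without TAB replicate 3. Pdk4, which rose by 1.45 in wild type, was at -0.90 in CHIP-/- (interaction adjusted p = 0.015), and Timp4, an inhibitor of metalloproteinases made by heart muscle, was at 0.68 in wild type and -0.95 in CHIP-/- (adjusted p = 7.1e-05). Myot, of the Z-disc, was at 0.60, which did not pass with median centring, and -0.57 (adjusted p = 0.0033). In the other direction Col3a1 differed by 1.22 in wild type and 3.29 in CHIP-/- (adjusted p = 0.0047), Postn by 2.31 and 4.67 (adjusted p = 0.018) and Fndc1, a fibronectin-like matrix gene, by 0.17 and 1.94 (adjusted p = 0.0011). Fabp4 rose less in CHIP-/-, by 0.75 (adjusted p = 0.0099 for the difference).

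Arrays of a group also differed among themselves. TAB replicate 1 alone had Ppp1r15a, a stress-induced phosphatase subunit, at 1.28 against -0.40 to -0.14 on the other TAB arrays, and Terf2, a telomere protein, at 1.37 against -0.26 to -0.05. It was the lowest TAB array for Postn, Nmrk2, Nppa, Clu and Ltbp2. Among the sham arrays the widest genes were Myl7, Hspa1a, Myl4, Postn, Myh7, Nr4a1, Hbb-bt and Clu. For Postn, Myh7, Clu and Nr4a1 replicate 4 was the highest sham array, with Clu at 4.07 against 2.61 to 2.84 and Nr4a1 at 1.08 against -0.74 to -0.10. Over all features the typical departure of an array from the mean of the others of its group was 0.148 to 0.174 (SD) in sham and 0.159 to 0.196 in TAB, highest in TAB replicate 1.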

How the data were processed

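RNA of 16 ventricles was measured on 2-colour Agilent arrays. Per the file headers, Feature Extraction 9.1.3.1 made the deposited intensity of each spot and its background and a log10 ratio of red over green; the submitters' deposited value table holds log2 ratios centred per probe. Red, Cy5, is the heart and green, Cy3, the reference, per the labels; no dyes were swapped. With limma 3.58.1 (R 4.3.3), intensities were corrected by normexp (offset 50), loess normalized within arrays, and averaged per probe. Of 41174 probes, 14908 were kept, whose Cy5 signal stood well above background on 4 or more of the 16 arrays. Probes were named through accessions (22951), symbols (6659) or synonyms (3109) of the RefSeq table (GRCm38.p6), and 8455 kept the file's name. The brightest probe stood for a gene, which gave 11177 features. All 16 arrays entered 1 fit by lmFit, with eBayes and a trend of the variance over each feature's mean log2 ratio. P-values were adjusted by Benjamini-Hochberg over all features. Data were simulated with independent noise, no slide effect and no normalization step, and 67, 67 and 66 features changed by 0.3, 0.5 and 1 (log2). There the wild-type comparison recovered 44.8%, 77.6% and 100% of these, with 8 false calls. Far more features were called in the real data, so these rates need not hold for them. Precision is limited by the number of arrays.

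The members and gene lists were chosen with earlier results of these data known. Genes were named from the 15 largest rises and 15 largest falls with separate groups and heart signal well above background on all 8 wild-type arrays, up to 3 passing members of each list and 1 in the opposite direction, the most variable genes of a group, label checks and the largest differences between genotypes; some of these are left out of the text. Other genes, such as the pairs and list members that did not pass, were added after their values were seen. Alternatives of scaling were median centring, Feature Extraction ratios, and quantile normalization of brightness with the spread of the ratios scaled between arrays. Others were 2 filters, wild-type arrays only, no trend, mean of probes, the submitters' table, a replicate block and leaving out arrays. Results on some items are not reported here.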

Additional observations from a re-analysis of the deposited data

Results flagged for a closer look

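Among the genes named above, 1 array of a group lay far from the others, by Dixon's 95% limit for the gap over the range of 4 arrays, in 30 of the 456 groups of 4 examined; chance alone gives about 1 in 20. The genes examined include some named for a large spread within a group. Sham replicate 4 was the outlying array 16 times and no other array more than 4 times. On sham replicate 4 the log2 ratios so marked were those of Adipoq (-3.21), Bckdha (1.47), Clu (4.07), Col8a1 (1.11), Ctss (-0.02), Fstl1 (-1.60), Hlf (0.85) and Ltbp2 (0.33). The same held there for Mmp2 (-0.19), Odc1 (-0.75), Postn (-1.75), Sec61b (-1.77), Serpinb1a (-1.82), Timp1 (-0.03), Tmod1 (1.51) and Xist (-3.20). Among these, the matrix and macrophage genes Clu, Col8a1, Ctss, Fstl1, Ltbp2, Mmp2, Postn, Serpinb1a and Timp1 were higher on that array than on the other sham arrays.

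Sham replicate 1 stood apart in Kcnj3 (1.97), Mt1 (-0.34), Ppara (0.29) and Tnnt2 (4.68). Sham replicate 3 stood apart in Idh2 (2.78), Myot (-1.41) and Slc27a1 (1.35). TAB replicate 1 stood apart in Cs (0.79), Ppp1r15a (1.28), Terf2 (1.37) and Tpm4 (-0.13). TAB replicate 4 stood apart in Cd68 (0.12), Pgam1 (-0.13) and Slc2a1 (-0.22). 

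The change after TAB in CHIP-/- minus that in wild type, on the log2 scale, passed limma's interaction test (Benjamini-Hochberg adjusted p below 0.05) for these genes named above. The difference was above 0 for Serpinb1a (2.57), Postn (2.36), Col3a1 (2.07), Fndc1 (1.78), Clu (1.54), Nmrk2 (1.52), Col8a1 (1.5) and Ltbp2 (1.5). It was also above 0 for Cnn1 (1.43), Fstl1 (1.33), Timp1 (1.31), Myl9 (1.28), Ccn2 (1.18), Des (1.15), Aspn (1.00) and Ctss (1.00). It was also above 0 for Lum (0.91), Serpinh1 (0.88), Tgfb3 (0.82), Sparc (0.75), Adgre1 (0.73), Lyz2 (0.70), Igf1 (0.52) and Csf1r (0.51). It was also above 0 for Eef1a1 (0.51), Gja1 (0.49), Grk5 (0.47), Hk1 (0.45), C1qc (0.42), Pdia3 (0.42) and Pgk1 (0.40). It was below 0 for Pdk4 (-2.35), Timp4 (-1.64), Myot (-1.18), Rpl3l (-1.02), Ppargc1a (-0.88), Hrc (-0.83), Fabp4 (-0.80) and Mt1 (-0.79). It was also below 0 for Ly6c1 (-0.68), Myl2 (-0.67), Perm1 (-0.46), Bckdha (-0.43) and Cd36 (-0.43). Over all features the number of calls of this test ran from 93 to 899 under the alternatives.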

How the results depend on the processing

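Of the 181 genes named with values that passed, 139 passed in the same direction under every alternative and 159 under every one but median centring. Median centring in place of loess gave 342 rises and 4005 falls and 118 genes whose response differed between genotypes; of the 3983 calls, 2210 were kept and 2 passed in the opposite direction. The scanner software's log ratios and the submitters' table gave 460 and 410 changes of at least 2-fold, against 98, and 114 and 93 differing genes. Quantile normalized brightness with scaled ratios gave 899 differing genes and no filter on dim probes 180. The causes were not tested. Leaving out 1 array gave 1775 to 2021 rises, 1622 to 1907 falls, 68 to 125 changes of 2-fold and 164 to 458 differing genes. Leaving out sham replicates 1 and 3 gave 1376 rises and 1144 falls. Leaving out TAB replicate 1 as well, chosen after seeing the data, gave 1213 falls and 204 differing genes. Centring on the tested features and a block of slide position were also chosen after seeing the data; neither moved these counts by over 1.5 times. Under median centring the differences of Cd36 (-0.30), Cox6a2 (-0.51), Cox7a2 (-0.16), Cox8a (-0.13), Cox8b (-0.39), Hspa5 (-0.30), Ldha (-0.43) and Pgk1 (-0.42) changed sign, as did Cox6a2 (-0.32), Ldha (-0.23) and Pgk1 (-0.22) centred on the tested features and Tnnt2 (-0.47) as the mean of its probes. With the replicate number as a block 2023 genes rose, 1861 fell, 98 changed 2-fold and 271 differed. Same-numbered sham and TAB arrays had deviations correlated at 0.03, -0.02, 0.00 and 0.19, so the numbers were not taken to pair animals. Slide as a block was not run, since each slide holds 1 group. Where the heart channel lies near background, as for Kcnip2 or Klhdc1, the size of a fall is limited by the signal.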
